A study of Mus musculus with 16 samples.

Results

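Immediate early genes are transcribed within minutes of synaptic activity or growth factor signalling, and 38 of them and of their activity-induced relatives were followed here in mouse cortex. The members were chosen by gene symbol from a list of known activity-regulated genes; the rule uses no measured value, but it was set with earlier results of these data known. All 38 occurred once in the count table of 55385 genes, and all 38 were among the 17019 genes that passed the filter on low counts. Polyadenylated RNA of brain cortex had been sequenced from 16 mice at 5 months of age, with 4 mice in each genotype. The Wild-type group was C57BL/6J. In Dp16 mice the part of chromosome 16 orthologous to human chromosome 21 is present in an extra copy, as a model of Down syndrome. 5xFAD mice are a transgenic model of familial Alzheimer's disease, with expression driven in neurons by the Thy1 promoter, and deposit amyloid. 5xFAD-Dp16 mice carry both. The Wild-type, Dp16 and 5xFAD groups each held 2 males and 2 females, whereas the 4 5xFAD-Dp16 mice were all male. None of the 38 genes lies on chromosome 16, so none is in the duplicated segment.

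Activity opens NMDA receptors and voltage-gated calcium channels, and calcium-dependent kinases and the MAP kinase cascade then phosphorylate factors such as CREB and the SRF partners, which are already bound at CRE sites and CArG boxes. The first wave of transcripts encodes mainly transcription factors (Fos, Jun, Egr, Nr4a and Npas4 families). It is accompanied by feedback inhibitors that end the signal and by effectors that act at synapses, such as Arc. In cortex these transcripts are low at rest and rise with sensory experience, seizures, stress and handling, and many have short half-lives, so their level reflects the time shortly before tissue collection.

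RefSeq promoter windows of the 250 bases before each start (GRCm38.p6) were found for 28 of the 38 members, in 43 windows because some genes have several starts. The 10 without a window, which were not searched, were Egr1, Egr3, Arc, Dusp4, Ier2, Klf10, Nptx2, Vgf, Sik1 and Trib1. Sites further upstream than 250 bases are not counted. The full CRE, TGACGTCA, occurred in windows of 4 of these 28 genes (14.3%; Btg2, Dusp1, Maff and Ppp1r15a) and in 9.3% of the 43 windows, against 1.55% of all 32851 windows of the same length. The partial CRE site TGACG, searched on both strands and counted also where it is contained in a full CRE, occurred in 18 of the 28 genes (64.3%) and in 55.8% of the member windows, against 17.8% of all windows. The CArG box, the SRF binding sequence, occurred for 2 genes, Egr2 and Zfp36 (7.14%), in 11.6% of the member windows against 1.47% of all; 4 of these 5 windows belong to alternative starts of Egr2, and 3 of the 4 overlap each other, so the share is mostly that of 1 gene. The EGR site GCGNGGGCG occurred for 10 genes (35.7%), in 23.3% of member windows against 4.7% of all, and the AP-1 site TGANTCA for 2 genes (7.14%), in 4.65% of member windows against 6.75%. The 8 stretches below belong to members whose values are described next. They were chosen because they hold a partial CRE site, a full CRE or, in Egr2, a CArG box, printed in capitals. The windows of Dusp6, Ier5, Gadd45b, Gadd45g and Ptgs2, also described next, hold none of these elements. Letters run 5′ to 3′ on the gene's strand. Dusp1 is shortened to the 203 bases outside annotated exons.
Fos (chr12:85473640-85473889, plus strand): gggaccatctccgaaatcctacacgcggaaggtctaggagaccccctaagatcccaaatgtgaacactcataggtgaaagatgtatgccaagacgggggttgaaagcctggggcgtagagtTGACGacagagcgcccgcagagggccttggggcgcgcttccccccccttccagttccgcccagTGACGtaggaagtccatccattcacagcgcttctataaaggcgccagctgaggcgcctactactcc
Junb (chr8:84978749-84978998, minus strand): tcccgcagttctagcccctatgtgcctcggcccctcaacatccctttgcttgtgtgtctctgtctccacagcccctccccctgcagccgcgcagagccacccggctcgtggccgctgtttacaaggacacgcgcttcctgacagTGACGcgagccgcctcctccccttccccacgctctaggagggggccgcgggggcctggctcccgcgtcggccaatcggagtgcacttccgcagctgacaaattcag
Maff (chr15:79347270-79347519, plus strand): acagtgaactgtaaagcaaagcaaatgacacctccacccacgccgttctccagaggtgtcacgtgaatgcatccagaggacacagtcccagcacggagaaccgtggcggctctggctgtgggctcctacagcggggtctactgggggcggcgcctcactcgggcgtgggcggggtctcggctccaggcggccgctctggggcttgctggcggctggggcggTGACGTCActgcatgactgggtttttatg
Egr2 (chr10:67537316-67537565, plus strand): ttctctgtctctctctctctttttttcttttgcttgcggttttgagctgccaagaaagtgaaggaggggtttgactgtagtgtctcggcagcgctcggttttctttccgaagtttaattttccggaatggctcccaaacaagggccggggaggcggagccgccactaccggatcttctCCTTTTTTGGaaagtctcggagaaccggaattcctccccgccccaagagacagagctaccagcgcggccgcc
Nr4a1 (chr15:101266596-101266845, plus strand): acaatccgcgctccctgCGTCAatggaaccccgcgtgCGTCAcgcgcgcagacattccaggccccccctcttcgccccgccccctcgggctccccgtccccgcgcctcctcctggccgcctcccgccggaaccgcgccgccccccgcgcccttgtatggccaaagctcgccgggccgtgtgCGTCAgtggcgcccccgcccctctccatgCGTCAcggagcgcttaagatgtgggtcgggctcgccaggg
Dusp1 (chr17:26508520-26508722, minus strand): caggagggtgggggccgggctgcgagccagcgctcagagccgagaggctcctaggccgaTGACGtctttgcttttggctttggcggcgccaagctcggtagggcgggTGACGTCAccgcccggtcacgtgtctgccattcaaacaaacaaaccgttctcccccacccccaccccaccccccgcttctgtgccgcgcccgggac
Btg2 (chr1:134079156-134079405, minus strand): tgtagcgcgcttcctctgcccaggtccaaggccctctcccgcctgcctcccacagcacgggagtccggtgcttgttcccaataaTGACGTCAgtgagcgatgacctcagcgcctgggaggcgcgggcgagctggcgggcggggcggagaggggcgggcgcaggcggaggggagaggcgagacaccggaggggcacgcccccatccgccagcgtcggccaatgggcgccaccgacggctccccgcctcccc
Bdnf (chr2:109692186-109692435, plus strand): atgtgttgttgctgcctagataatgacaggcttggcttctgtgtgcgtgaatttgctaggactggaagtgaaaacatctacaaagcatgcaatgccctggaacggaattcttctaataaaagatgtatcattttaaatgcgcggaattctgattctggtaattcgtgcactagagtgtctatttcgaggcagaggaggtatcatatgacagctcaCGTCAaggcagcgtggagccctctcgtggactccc
The full CRE begins 29 bases before the start in Maff, 143 in Dusp1 and 166 in Btg2, and the CArG box of Egr2 begins 72 bases before its start. Fos holds 2 partial sites and no full CRE, Nr4a1 holds 4 partial sites, and Junb and Bdnf hold 1 each. Among the windows of the alternative Bdnf starts, only the stretch shown holds a partial site. A match of letters is a description and does not show binding.

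Library totals were 12483286 to 20385010 counts. With every library thinned to the smallest total, 18331 to 20304 genes were detected in Wild-type and 20094 to 21142 in Dp16. In 5xFAD they were 20079 to 21055, and in 5xFAD-Dp16 20198 to 21185. Wild-type replicates 1, 2 and 3, at 18816, 18331 and 19057, lay below all libraries of the other genotypes. The part of this difference in the comparisons with Wild-type and in the interaction was not tested. Wild-type replicate 2 and 5xFAD replicate 3 stood apart, with a median correlation to the rest of 0.939 for the former and 0.938 for the latter, where the remaining 14 had 0.953 to 0.972, and results that rest on them are given with and without them. Libraries differed in how counts depended on gene length: Spearman's rho across genes between a library's deviation and gene length was lowest in 5xFAD replicate 3, at -0.46, and highest at 0.45 in 5xFAD-Dp16 replicate 1. The labels name the tissue as cortex, and the 10 excitatory neuron markers summed to 960 to 3755 CPM (counts scaled to library size). The 7 striatum markers summed to 691 to 1426 CPM. In 5xFAD replicate 3 the striatum sum was 725 CPM, beside 960 for the excitatory markers. Whether the samples held striatal tissue was not tested. Of the 6 choroid plexus markers, 4 (Folr1, Aqp1, Prlr and Kl) averaged under 1 CPM over the 16 libraries. The choroid plexus sum was 691 CPM in 5xFAD-Dp16 replicate 2 and 110.2 in Dp16 replicate 3, against 5.84 to 24.2 in the other 14 libraries. In bulk tissue, fewer cells of a type and less RNA per cell cannot be told apart. The p-values weigh differences between genotypes against the spread between mice within genotypes, with a sex term in the fit. The labels name no separate litters, cages or collection times. Any difference in these between genotypes cannot be told apart from genotype.

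**Figure D1:**
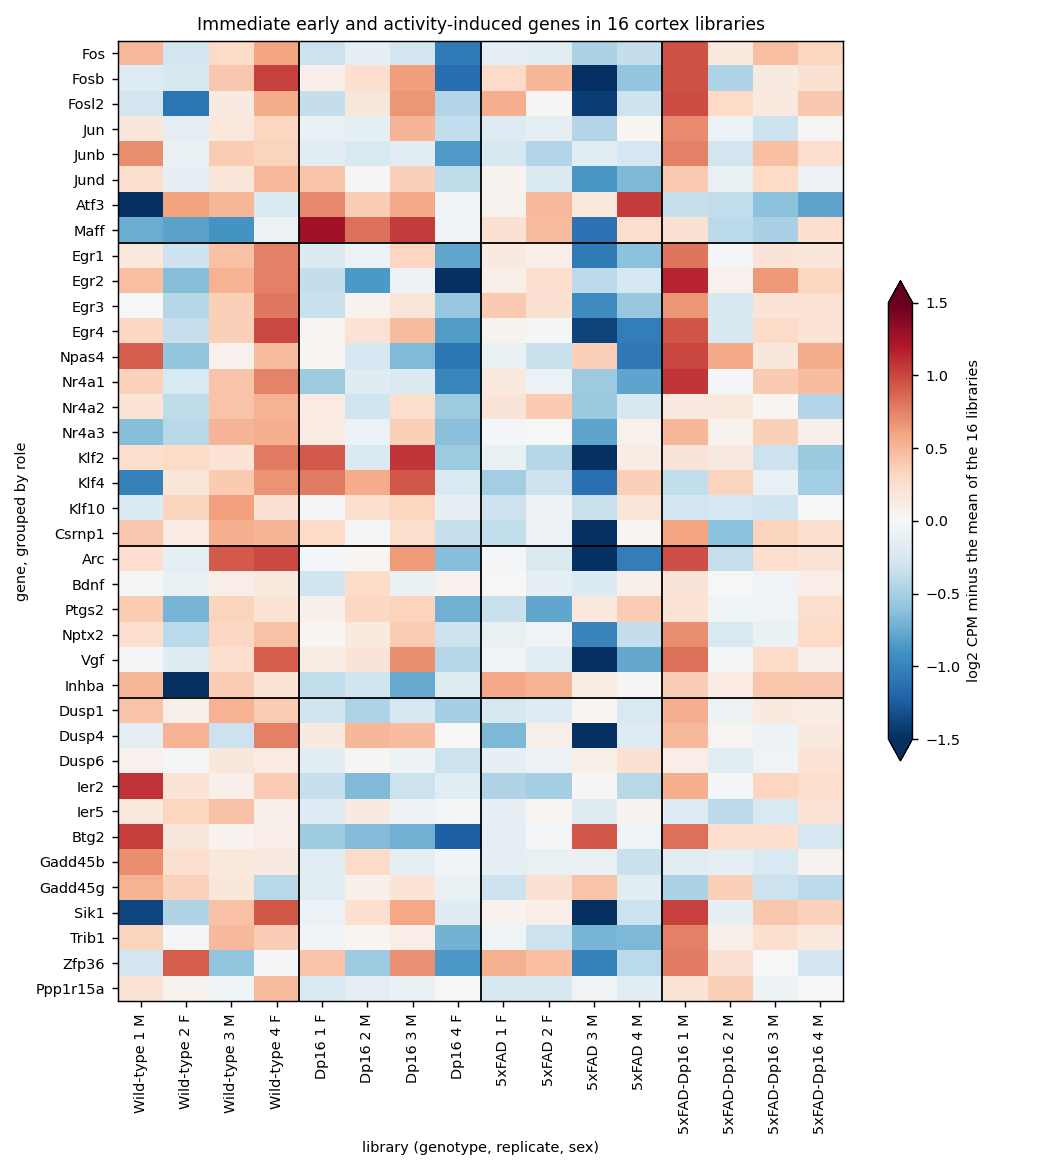
Log2 CPM of the 38 genes (rows, grouped by role: AP-1 and related factors, other DNA-binding factors, synaptic and secreted effectors, feedback regulators) in 16 libraries (columns), as the deviation from each gene's mean over the libraries (colour scale in log2 units, ends at 1.5). 5xFAD replicate 3 and Dp16 replicate 4 each have 25 of 38 genes among their own 4 lowest libraries, and Wild-type replicate 4 and 5xFAD-Dp16 replicate 1 each have 26 among their 4 highest.

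By level per gene length, averaged over the 16 libraries, Jund ranked first at 73.7 RPKM, followed by Arc at 49.5, Vgf at 48.2, Junb at 45.8 and Egr1 at 45.5. Arc, Vgf, Junb and Egr1 lay close together relative to their spread between mice of 1 genotype. Fos was mid-table at 11.7 RPKM, while Npas4 (3.15), Egr2 (2.71) and Fosb (2.598) were among the lower ones, and Zfp36 was lowest at 0.62. Mice of 1 genotype differed more in these genes than in most: the within-genotype standard deviation of log2 CPM had a median of 0.44 over the 38 members and 0.36 over all 17019 tested genes, and 24 of 38 members lay above the latter. Fosb (0.78), Sik1 (0.71) and Atf3 (0.70) varied most, and Dusp6 (0.14), Bdnf (0.16) and Ppp1r15a (0.17) least. The mean log2 CPM of Fosb, Sik1 and Atf3 was 3.14, 2.59 and 1.37, below the member median of 4.25. Counting noise was not separated from differences between mice. The mean deviation of the 38 genes per library, called the member score below, was 0.09, -0.15, 0.26 and 0.45 in Wild-type replicates 1 to 4, 0.01, -0.01, 0.21 and -0.50 in Dp16, -0.05, -0.04, -0.66 and -0.24 in 5xFAD, and 0.49, -0.04, 0.08 and 0.09 in 5xFAD-Dp16. All 5xFAD scores were below 0, and the genotypes overlapped in every pair, 5xFAD and 5xFAD-Dp16 only through 5xFAD-Dp16 replicate 2.

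Among the AP-1 factors, Fos (chr12:85473890-85477273, GRCm38, 4 exons), which dimerises with Jun proteins, read 32.3, 19, 28.3 and 34.8 CPM in Wild-type replicates 1 to 4 and 18.4, 20.9, 19.1 and 10.98 in Dp16. It read 20.8, 20.6, 16.6 and 18.04 in 5xFAD and 44.8, 25.5, 31.6 and 29.01 in 5xFAD-Dp16. Every 5xFAD-Dp16 library thus exceeded every Dp16 and every 5xFAD library, while Wild-type replicate 2 fell within the range of both single-mutant groups. Junb (chr8:84974484-84978718, 1 exon), a Jun protein that competes with Jun, read 129, 74.2, 103 and 100.2 in Wild-type and 70.6, 67.8, 70.8 and 43.7 in Dp16. It read 67.2, 58.3, 70.4 and 66.3 in 5xFAD and 134, 65.3, 108 and 94.2 in 5xFAD-Dp16. All Dp16 and all 5xFAD libraries lay below all Wild-type libraries, and 5xFAD-Dp16 replicate 2 lay among them. Maff (chr15:79346621-79359076, 3 exons), a small Maf protein without a transactivation domain, was scarce and read 1.90, 1.82, 1.70 and 3.05 in Wild-type and 7.95, 5.87, 6.89 and 3.12 in Dp16. It read 3.82, 4.57, 1.45 and 3.93 in 5xFAD and 3.82, 2.44, 2.30 and 3.91 in 5xFAD-Dp16. Unlike Fos and Junb, it read higher in all 4 Dp16 libraries than in all Wild-type libraries. The other 5 of this class had library values of 2.31 to 17.9 CPM for Fosb, 5.15 to 27.7 for Fosl2, 31.1 to 69.4 for Jun, 64.4 to 166 for Jund and 0.476 to 5.23 for the stress-induced Atf3.

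Among the other DNA-binding factors, Egr1, a zinc finger factor used as an activity reporter, read 214, 155, 261 and 324 CPM in Wild-type and 166, 181, 241 and 112 in Dp16. It read 212, 206, 92.2 and 125 in 5xFAD and 333, 188, 219 and 216 in 5xFAD-Dp16. All genotypes overlapped, and 5xFAD replicate 3 was the lowest library. Egr2 (chr10:67535475-67542188, 2 exons), its relative, read 10.7, 4.96, 11.2 and 13.1 in Wild-type and 6.03, 4.22, 7.29 and 2.42 in Dp16. It read 8.24, 9.26, 5.87 and 6.46 in 5xFAD and 17.4, 8.14, 12.2 and 9.74 in 5xFAD-Dp16. All 5xFAD-Dp16 libraries exceeded all Dp16 libraries. Npas4 (chr19:4984355-4990316, 6 exons), a neuron-specific factor induced by calcium entry, read 19.5, 6.85, 10.8 and 14.4 in Wild-type and 10.6, 8.67, 6.53 and 4.85 in Dp16. It read 9.62, 8.23, 13.4 and 4.89 in 5xFAD and 20.9, 15.5, 11.7 and 15.3 in 5xFAD-Dp16. Its 5xFAD-Dp16 libraries lay above all Dp16 libraries and overlapped the other 2 genotypes. Nr4a1 (chr15:101254269-101274795, 8 exons), an orphan nuclear receptor, read 84.5, 56.5, 89.5 and 111 in Wild-type and 45.9, 58.7, 56.9 and 33.5 in Dp16. It read 73.3, 62.3, 45.3 and 38.4 in 5xFAD and 139, 64.9, 87.5 and 91.7 in 5xFAD-Dp16. All 5xFAD-Dp16 libraries exceeded all Dp16 libraries, while Wild-type replicate 2 lay inside the Dp16 range. Klf10 (chr15:38291463-38300706, 4 exons), a zinc finger factor induced by TGF-beta, read 46.5, 67.3, 82.4 and 62.9 in Wild-type and 52.4, 63.2, 66.9 and 49.4 in Dp16. It read 43.2, 50.8, 42.4 and 60.9 in 5xFAD and 43.9, 44.6, 43.4 and 54 in 5xFAD-Dp16. Wild-type replicate 1 lay within the 5xFAD-Dp16 range, and the other 3 Wild-type libraries lay above it. The other 7 of this class ranged over 51.4 to 171 CPM for Egr3, 8.25 to 43.6 for Egr4, 20.8 to 43.9 for Nr4a2, 8.84 to 22.6 for Nr4a3, 2.77 to 21.1 for Klf2, 1.72 to 7.44 for Klf4 and 1.78 to 10.4 for Csrnp1.

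Among the feedback regulators, Dusp1 (chr17:26505590-26562128, 3 exons in its longest transcript), a phosphatase that inactivates MAP kinases, read 65.8, 51.3, 70.3 and 63.7 CPM in Wild-type and 39.6, 35.5, 41.4 and 34.5 in Dp16. It read 41.2, 42.5, 49.9 and 41.6 in 5xFAD and 71.1, 46.4, 54.2 and 52.5 in 5xFAD-Dp16. All Dp16 and all 5xFAD libraries lay below all Wild-type libraries, and all 5xFAD-Dp16 libraries lay above all Dp16 libraries. Btg2 (chr1:134075170-134079120, 2 exons), an antiproliferative protein that promotes mRNA deadenylation, read 23.9, 13.05, 11.99 and 12.4 in Wild-type and 7.95, 7.36, 6.99 and 4.90 in Dp16. It read 10.4, 11.4, 22.1 and 11.02 in 5xFAD and 20.6, 13.8, 13.8 and 9.69 in 5xFAD-Dp16. The 4 Dp16 libraries were the 4 lowest of the 16. Ier2 (chr8:84661331-84662852, 1 exon), a nuclear protein of the first wave, read 24.5, 13.3, 12.2 and 15.1 in Wild-type and 9.09, 7.24, 9.21 and 10.3 in Dp16. It read 8.43, 8.06, 11.7 and 8.66 in 5xFAD and 16.9, 11.3, 14.5 and 13.9 in 5xFAD-Dp16. Dp16 and 5xFAD lay below Wild-type without overlap. Trib1 (chr15:59648350-59657099, 3 exons), a pseudokinase that directs proteins to degradation, read 21.8, 17.2, 24.3 and 22.3 in Wild-type and 16.8, 17.6, 18.5 and 10.5 in Dp16. It read 16.6, 13.8, 10.6 and 10.8 in 5xFAD and 29.3, 18.3, 20.5 and 19.3 in 5xFAD-Dp16. The 5xFAD range lay below those of Wild-type and 5xFAD-Dp16.

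Ier5 (chr1:155096361-155099636, 1 exon), a relative of Ier2 that acts on heat shock factor, read 136, 153, 166 and 129 CPM in Wild-type and 107, 134, 116 and 120.5 in Dp16. It read 113, 125, 108 and 127 in 5xFAD and 107, 93.3, 105 and 141 in 5xFAD-Dp16. The highest 5xFAD-Dp16 library exceeded the 2 lowest Wild-type libraries, and 5xFAD lay just below Wild-type. Gadd45b (chr10:80930073-80932204, 4 exons), a stress protein tied to DNA demethylation in neurons, read 33.6, 24.5, 23.3 and 22.9 in Wild-type and 18.5, 25.3, 18.7 and 20.2 in Dp16. It read 18.8, 19.1, 19.2 and 16.5 in 5xFAD and 18.5, 18.8, 17.7 and 21.6 in 5xFAD-Dp16. Both groups with the 5xFAD transgenes lay below all Wild-type libraries. Gadd45g (chr13:51846678-51848468, 4 exons) read 35.4, 31.4, 27.7 and 18.5 in Wild-type and 22.1, 25.95, 28.4 and 22.7 in Dp16. It read 19.8, 28.7, 33.1 and 22.1 in 5xFAD and 17.7, 31.5, 19.6 and 18.7 in 5xFAD-Dp16. Its ranges overlapped in every pair of genotypes. Dusp6 (chr10:99263231-99267489, 3 exons), a phosphatase of ERK, read 77.1, 72.7, 82.8 and 80.3 in Wild-type and 66.2, 74.8, 69.8 and 58.97 in Dp16. It read 67.7, 69.2, 78.5 and 86.2 in 5xFAD and 78.97, 65.7, 70.2 and 84.6 in 5xFAD-Dp16, and all pairs of genotypes overlapped. The other 4 feedback regulators ranged over 1.32 to 7.83 CPM for Dusp4, 1.91 to 12.2 for Sik1, 0.924 to 3.80 for Zfp36 and 13.6 to 22.5 for Ppp1r15a.

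Among the effectors, Arc (chr15:74669083-74672570, 3 exons), which drives AMPA receptor internalisation, read 161, 121, 254 and 266 CPM in Wild-type and 132, 137, 209 and 86.4 in Dp16. It read 132, 116, 37.8 and 65.6 in 5xFAD and 263, 106, 161 and 154 in 5xFAD-Dp16. The 2 male 5xFAD libraries were the 2 lowest of all 16, and the 2 female ones lay inside the Dp16 range. Vgf (chr5:137026392-137033351, 5 exons), a secreted neuropeptide precursor, read 128, 115, 155 and 243 in Wild-type and 141, 149, 212 and 96.8 in Dp16. It read 126, 116, 40.6 and 76.9 in 5xFAD and 231, 129, 159 and 138 in 5xFAD-Dp16. Every 5xFAD-Dp16 library exceeded every 5xFAD library, by little between 5xFAD replicate 1 and 5xFAD-Dp16 replicate 2. Bdnf (chr2:109674700-109727007, 2 exons in its longest transcript), the neurotrophin, read 25.5, 24.1, 28.1 and 28.97 in Wild-type and 21.3, 31.7, 24.1 and 27.4 in Dp16. It read 25.96, 23.5, 22.6 and 27.7 in 5xFAD and 29.97, 26.2, 25.3 and 28.1 in 5xFAD-Dp16. Its ranges overlapped in every pair of genotypes, and its means ran from 24.9 ± 2.29 in 5xFAD to 27.4 ± 2.08 in 5xFAD-Dp16 (SD, n = 4). Ptgs2 (chr1:150100031-150108227, 10 exons), the inducible cyclooxygenase, read 12.3, 5.78, 11.9 and 10.8 in Wild-type and 9.94, 11.7, 11.9 and 5.69 in Dp16. It read 7.45, 5.43, 10.5 and 12.3 in 5xFAD and 10.9, 9.03, 9.03 and 11.3 in 5xFAD-Dp16. The 4 lowest libraries were all from females. Nptx2 ranged over 16.5 to 53.97 CPM and Inhba over 1.49 to 9.36.

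**Figure D2:**
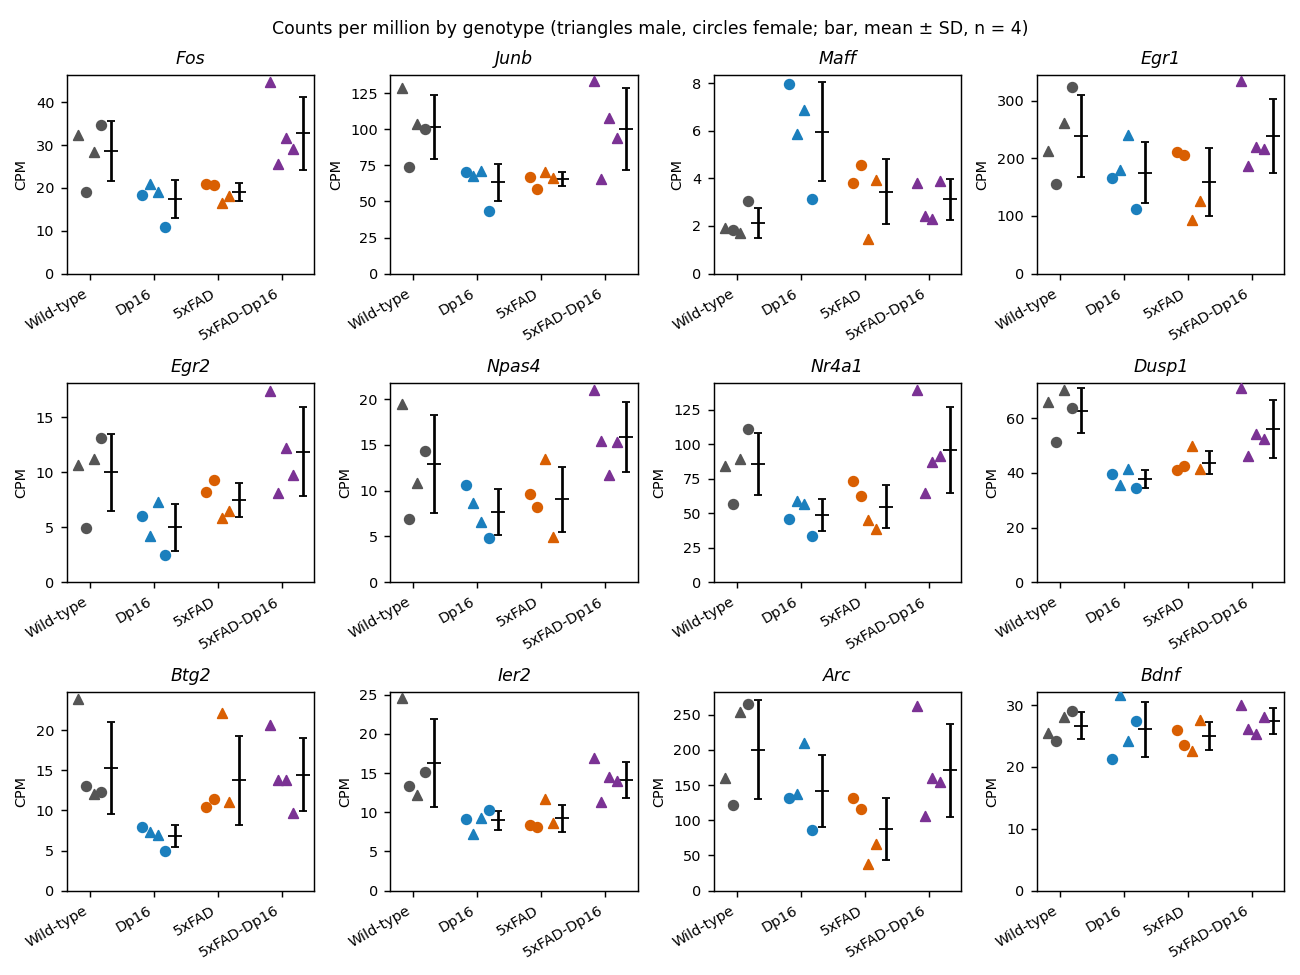
CPM (vertical axes, linear from 0) of 12 members in each library by genotype, triangles for males and circles for females, with the mean and SD (n = 4) as black bars. For Dusp1 the Dp16 libraries reach at most 41.4 and the Wild-type libraries start at 51.3, whereas Bdnf overlaps in every pair of genotypes.

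In Dp16 cortex several first-wave transcripts stood lower than in Wild-type. Dusp1, Btg2, Ier2 and Junb were lower in all 4 Dp16 libraries than in all 4 Wild-type libraries, at 0.603, 0.449, 0.555 and 0.624 times the Wild-type level in the fit, and Maff was 2.84 times higher. None of the 38 passed a false discovery rate of 0.05 by edgeR's quasi-likelihood test adjusted over all genes, where 0.0176% of genes were called. The log2 change (Dp16 minus Wild-type) was -0.73 (SE 0.14, adjusted p = 0.141) for Dusp1, -1.15 (SE 0.28, adjusted p = 0.399) for Btg2, 1.51 (SE 0.37, adjusted p = 0.405) for Maff and -0.85 (SE 0.22, adjusted p = 0.577) for Ier2. At an unadjusted p under 0.05, 10 of 38 members were lower, against 1.4% of all tested genes lower, and 1 (Maff) was higher, against 2.48% of all genes. Lower without overlap were 4 of 38, against 0.852% of all genes. The median member log2 change was -0.25, with 30 of 38 negative, while that of all genes was 0.00 with 49.6% negative. Of the 10, 2 were AP-1 factors (Fos and Junb), 3 other DNA-binding factors (Nr4a1, Egr2 and Npas4) and 5 feedback regulators (Dusp1, Btg2, Ier2, Gadd45b and Ier5). None of the 6 effectors was among them, and Arc was at -0.49 (SE 0.37, adjusted p = 1). The other reporters were at -0.73 (SE 0.22, adjusted p = 0.778) for Fos, -0.68 (SE 0.19, adjusted p = 0.673) for Junb, -0.81 (SE 0.26, adjusted p = 0.883) for Nr4a1, -0.75 (SE 0.34, adjusted p = 1) for Npas4, -0.43 (SE 0.29, adjusted p = 1) for Egr1 and -0.03 (SE 0.14, adjusted p = 1) for Bdnf, which was 0.05 in males only. By DESeq2, 3 members passed (Dusp1, adjusted p = 0.000513, Btg2, 0.0343, and Maff, 0.0402), where 0.206% of genes were called.

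Beside this comparison, excitatory neuron markers summed to 1630 to 3633 CPM in Dp16 and 1435 to 3539 in Wild-type, with 0 of 10 at an unadjusted p under 0.05. Endothelium markers summed to 142 to 219 against 153 to 211. The mitochondrial share of counts was 8.68 to 10.3% in Dp16 and 7.71 to 8.16% in Wild-type, without overlap. Of 7 blood markers 3 were higher at an unadjusted p under 0.05, with sums of 183 to 300.3 against 75.3 to 422 CPM, and all 6 choroid plexus markers were positive, 2 of them at that threshold, with a median of 1.18. Their part in the result was not tested. Dp16 replicate 4, a female, had 25 of 38 members among their 4 lowest libraries. Without it 7 of 38 were lower at an unadjusted p under 0.05, against 1.87% of all genes, with a median change of -0.17. Without Wild-type replicate 4 the median change was also -0.17. Without both libraries that stand apart, 15 of 38 were lower, against 1.66% of all genes. In males only (2 against 2) the median was -0.11 with 23 of 38 negative, and 9 were lower at an unadjusted p under 0.05, against 2.05% of all genes.

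In 5xFAD cortex most of the members stood lower than in Wild-type. Of 38 members 35 had negative log2 changes (5xFAD minus Wild-type), with a median of -0.48, against 47.9% negative and a median of 0.02 over all genes. None of the 38 passed after adjustment, where 0.176% of genes were called. At an unadjusted p under 0.05, 18 of 38 were lower, against 5.53% of all genes, and 0 were higher. Lower without overlap were 8 of 38, against 2.68% of all genes: Dusp1, Ier2, Trib1, Gadd45b, Junb, Csrnp1, Ier5 and Klf2. The changes were -0.52 (SE 0.14, adjusted p = 0.21) for Dusp1, -0.82 (SE 0.22, adjusted p = 0.216) for Ier2, -0.72 (SE 0.22, adjusted p = 0.254) for Trib1 and -0.50 (SE 0.15, adjusted p = 0.265) for Gadd45b. Arc had the most negative value of the 38, -1.22 (SE 0.38, adjusted p = 0.267), with a wide standard error. The other reporters were at -0.62 (SE 0.19, adjusted p = 0.267) for Junb, -0.58 (SE 0.22, adjusted p = 0.371) for Fos, -0.65 (SE 0.26, adjusted p = 0.405) for Nr4a1, -0.60 (SE 0.29, adjusted p = 0.473) for Egr1, -0.51 (SE 0.33, adjusted p = 0.598) for Npas4 and -0.10 (SE 0.14, adjusted p = 0.817) for Bdnf. The 18 comprised 3 AP-1 factors, 5 other DNA-binding factors, 7 feedback regulators and 3 effectors. DESeq2 passed 2 members, Dusp1 (adjusted p = 0.0275) and Ier2 (0.0327), where 1.38% of genes were called.

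Beside these values, the endothelium marker sum was 84.6 to 131 CPM in 5xFAD and 153 to 211 in Wild-type, with 5 of 10 markers lower at an unadjusted p under 0.05, and the microglia sum was 759 to 1089 against 553 to 657. Excitatory neuron markers summed to 960 to 2277 against 1435 to 3539. Of these, 8 of 10 were negative, with 1 lower at that threshold and a median of -0.32. Oligodendrocyte markers summed to 6039.9 to 7763 against 7633 to 9065, with 5 of 8 lower and a median of -0.43. Mural cell and fibroblast markers were negative in 7 of 8, with 2 lower and a median of -0.74, and hippocampus and thalamus markers in 7 of 8, with 1 lower and a median of -0.57. Their part in the result was not tested. Without 5xFAD replicate 3, 9 of 38 members were lower at an unadjusted p under 0.05, against 3.29% of all genes. The median change was then -0.31. Without Wild-type replicate 4, 10 were lower, against 4.23% of all genes, with a median of -0.32. With both libraries that stand apart left out, the count was 14, against 4.98% of all genes, and the median -0.46.

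**Figure D3:**
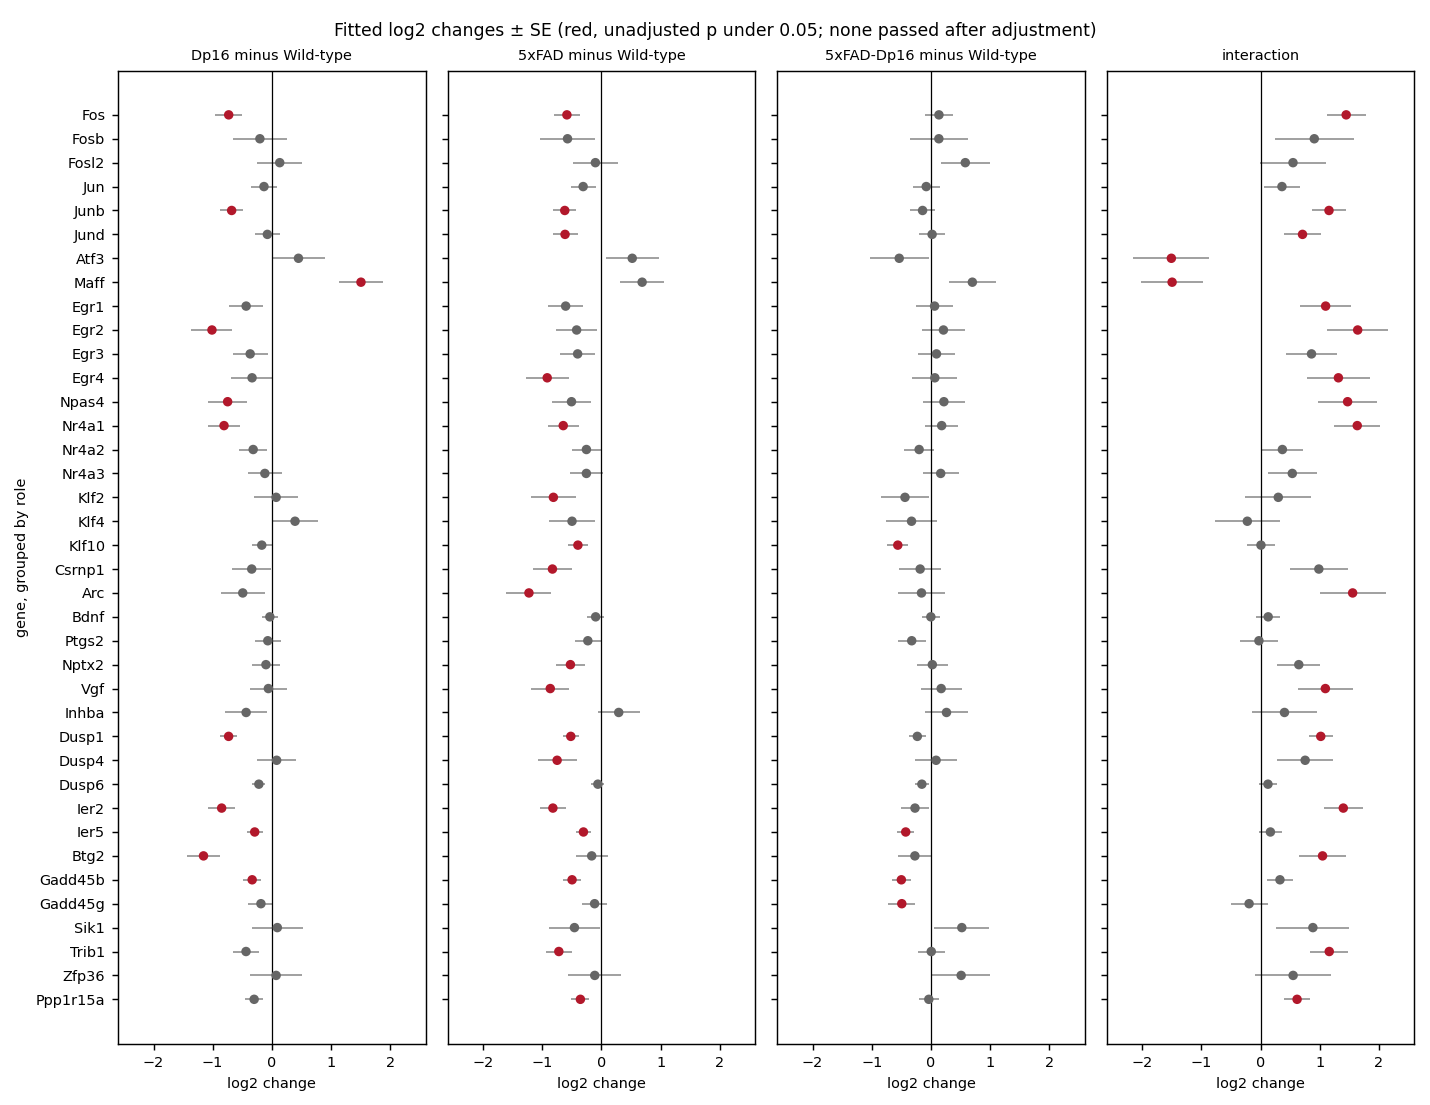
Fitted log2 changes (horizontal axes) with standard errors (bars) of the 38 genes in Dp16, 5xFAD and 5xFAD-Dp16 relative to Wild-type, and for the interaction. Red points have an unadjusted p under 0.05 and none passed after adjustment; the medians are -0.25, -0.48, 0.00 and 0.68.

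In 5xFAD-Dp16 cortex the members lay on both sides of the Wild-type level. Of the 38 members 19 were above and 19 below Wild-type, with a median log2 change of 0.00. After adjustment 0 passed, where 0.047% of genes were called, and DESeq2 passed 0. At an unadjusted p under 0.05, 4 were lower, against 5.12% of all genes, and 2 of 38 lay lower without overlap (Gadd45b and Klf2), against 1.61%. The 4 were Klf10 at -0.56 (SE 0.18, adjusted p = 0.415), Gadd45b at -0.50 (SE 0.16, adjusted p = 0.415), Ier5 at -0.43 (SE 0.14, adjusted p = 0.427) and Gadd45g at -0.49 (SE 0.23, adjusted p = 0.479). Fos averaged 32.7 ± 8.43 CPM in 5xFAD-Dp16 and 28.6 ± 6.93 in Wild-type (SD, n = 4), and Nr4a1 averaged 95.8 ± 31.2 and 85.4 ± 22.5. Without Wild-type replicate 3, 2 members were lower at an unadjusted p under 0.05, against 4.28% of all genes. Without 5xFAD-Dp16 replicate 1, 31 of 38 were negative and the median was -0.17, and without both libraries that stand apart it was -0.14. Oligodendrocyte markers summed to 6295 to 6429 CPM against 7633 to 9065 in Wild-type, without overlap. Of these, 3 of 8 were lower at an unadjusted p under 0.05. Excitatory neuron markers were positive in 9 of 10, with 1 higher at that threshold and a median of 0.43. The part of these markers in the result was not tested.

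Against 5xFAD, 29 of 38 members were higher in 5xFAD-Dp16, with a median of 0.49 against 0.00 over all genes. After adjustment 0 passed, where 0% of genes were called. At an unadjusted p under 0.05, 10 of 38 were higher, against 11.8% of all genes, and 3 of 38 (Trib1, Fos and Vgf) were higher without overlap, against 5.59%; the latter count is near its background share. The changes were 0.72 (SE 0.24, adjusted p = 0.155) for Trib1, 0.72 (SE 0.25, adjusted p = 0.156) for Fos, 1.04 (SE 0.36, adjusted p = 0.156) for Vgf and 0.83 (SE 0.30, adjusted p = 0.157) for Nr4a1. Of the other reporters, Arc was at 1.06 (SE 0.43, adjusted p = 0.169), Egr1 at 0.67 (SE 0.33, adjusted p = 0.225), Npas4 at 0.72 (SE 0.36, adjusted p = 0.231), Junb at 0.48 (SE 0.21, adjusted p = 0.19), Dusp1 at 0.29 (SE 0.15, adjusted p = 0.244) and Bdnf at 0.10 (SE 0.15, adjusted p = 0.723), which was negative with the length trend removed, at -0.18. DESeq2 gave an adjusted p for 30 members and passed 2, Vgf (0.0454) and Trib1 (0.0475), where 7.5% of genes were called. All 5xFAD-Dp16 mice were male and 2 of 4 5xFAD mice were female, so the fit carries a sex term. In males only (4 5xFAD-Dp16 against 2 5xFAD mice), 13 of 38 passed where 22.5% of genes were called. In a fit of these 2 genotypes 15 of 38 passed where 31.3% were called. Without 5xFAD replicate 3, replicate 4 was the only 5xFAD mouse of the males-only fit, and the member median was 0.42.

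In the fit over all mice without 5xFAD replicate 3 the median was 0.24. There 4 of 38 members were higher at an unadjusted p under 0.05, against 3.87% of all genes. Without 5xFAD replicate 4 or 5xFAD-Dp16 replicate 1 the counts were 5 and 4, against 7.64% and 5.92% of all genes. Without Wild-type replicate 2, 16 were higher, against 16.1% of all genes. Leaving out both libraries that stand apart gave 10, against 7.46% of all genes, and a median of 0.31. Excitatory neuron markers summed to 2339 to 3755 CPM in 5xFAD-Dp16 and 960 to 2277 in 5xFAD, without overlap, with 5 of 10 higher at an unadjusted p under 0.05. Endothelium markers summed to 117 to 203 against 84.6 to 131, and microglia markers to 594 to 686 against 759 to 1089. Hippocampus and thalamus markers summed to 61.2 to 80.4 against 41.7 to 60.2, without overlap, and 8 of 8 were positive, 3 of them at an unadjusted p under 0.05, with a median of 0.93. The part of these markers in the result was not tested. Spearman's rho with gene length was 0.10 to 0.45 in 5xFAD-Dp16 and -0.46 to 0.23 in 5xFAD. With the length trend removed, the member median was 0.42 with 28 of 38 positive, and 11 of 38 were higher at an unadjusted p under 0.05, against 10.5% of all genes.

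Against Dp16, 29 of 38 members were higher in 5xFAD-Dp16, with a median of 0.27 against 0.01 over all genes. After adjustment 0 passed, where 0.0176% of genes were called, and DESeq2 passed 0. At an unadjusted p under 0.05, 8 of 38 were higher, against 2.67% of all genes, and 8 of 38 lay higher without overlap, against 2.82%. Those without overlap were Fos, Nr4a1, Dusp1, Egr2, Btg2, Npas4, Ier2 and Inhba. The changes were 0.86 (SE 0.24, adjusted p = 0.758) for Fos, 0.99 (SE 0.28, adjusted p = 0.758) for Nr4a1, 0.50 (SE 0.15, adjusted p = 0.758) for Dusp1 and 1.22 (SE 0.37, adjusted p = 0.758) for Egr2. Npas4 was at 0.97 (SE 0.37, adjusted p = 0.758), Junb at 0.54 (SE 0.21, adjusted p = 0.758), Egr1 at 0.50 (SE 0.30, adjusted p = 0.758), Bdnf at 0.03 (SE 0.15, adjusted p = 0.96) and Arc at 0.33 (SE 0.39, adjusted p = 0.815). Arc and Bdnf were both at -0.03 in males only and with only the genotypes compared. The median depended on which mice entered: it was 0.02 with 20 of 38 positive in males only, 0.06 without 5xFAD-Dp16 replicate 1, 0.14 without Dp16 replicate 4 and 0.50 without Dp16 replicate 3. The count of 8 at an unadjusted p under 0.05 was 5 without 5xFAD-Dp16 replicate 1, against 1.4% of all genes. It was 9 in males only, against 1.61%, and 9 without both libraries that stand apart, against 4.44%. Beside this, excitatory neuron markers were positive in 9 of 10, with a median of 0.33 and 0 higher at an unadjusted p under 0.05. Inhibitory neuron markers summed to 1234 to 1277 CPM in 5xFAD-Dp16 and 1455 to 1533 in Dp16, without overlap. Of these, 4 of 8 were lower at that threshold. Blood markers were negative in 7 of 7, with 4 lower and a median of -0.80. Their part in the result was not tested. The 3 comparisons with 5xFAD-Dp16 share its libraries, as those with Wild-type share theirs.

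The interaction asks whether the duplication changed these genes differently with and without the 5xFAD transgenes (5xFAD-Dp16 minus 5xFAD, less Dp16 minus Wild-type). It was positive for 33 of 38 members, with a median log2 value of 0.68 against -0.01 over all genes, of which 49.2% were positive. After adjustment 0 passed by edgeR, where 0% of genes were called. At an unadjusted p under 0.05, 15 of 38 were positive, against 4.58% of all genes, and 2 (Maff and Atf3) were negative, against 4.77%. The values were 1.02 (SE 0.20, adjusted p = 0.522) for Dusp1, 1.45 (SE 0.33, adjusted p = 0.522) for Fos, 1.40 (SE 0.33, adjusted p = 0.522) for Ier2 and 1.63 (SE 0.39, adjusted p = 0.522) for Nr4a1. Junb was at 1.16 (SE 0.29, adjusted p = 0.522), Npas4 at 1.47 (SE 0.50, adjusted p = 0.522), Arc at 1.56 (SE 0.56, adjusted p = 0.522), Egr1 at 1.10 (SE 0.43, adjusted p = 0.522) and Bdnf at 0.13 (SE 0.20, adjusted p = 0.784), which was -0.12 with the length trend removed. DESeq2 passed 4 members, where 0.123% of genes were called: Dusp1 (adjusted p = 0.00699), Fos (0.0362), Ier2 (0.0376) and Nr4a1 (0.0376). By role, the positive count at an unadjusted p under 0.05 was 3 of 8 AP-1 factors, 5 of 12 other DNA-binding factors, 5 of 12 feedback regulators and 2 of 6 effectors, with medians of 0.63, 0.92, 0.69 and 0.53. Excitatory neuron markers were also positive in 10 of 10, with 3 at an unadjusted p under 0.05 and a median of 0.63, and endothelium markers in 10 of 10 with a median of 0.75. Hippocampus and thalamus markers were positive in 7 of 8 with a median of 0.82, blood markers negative in 7 of 7 with a median of -0.61, and 4 of 8 microglia markers were lower at an unadjusted p under 0.05. Their part in the result was not tested. With the gene length trend removed the member median was 0.71, in males only 0.83, and without 5xFAD replicate 3 it was 0.46 with 11 of 38 positive at an unadjusted p under 0.05, against 2.09% of all genes. Without both libraries that stand apart it was 0.70, with 17 of 38, against 5.85%. Without Wild-type replicate 4 or 5xFAD-Dp16 replicate 1, 10 of 38 were positive at that threshold, against 1.91% and 2.17% of all genes.

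**Figure D4:**
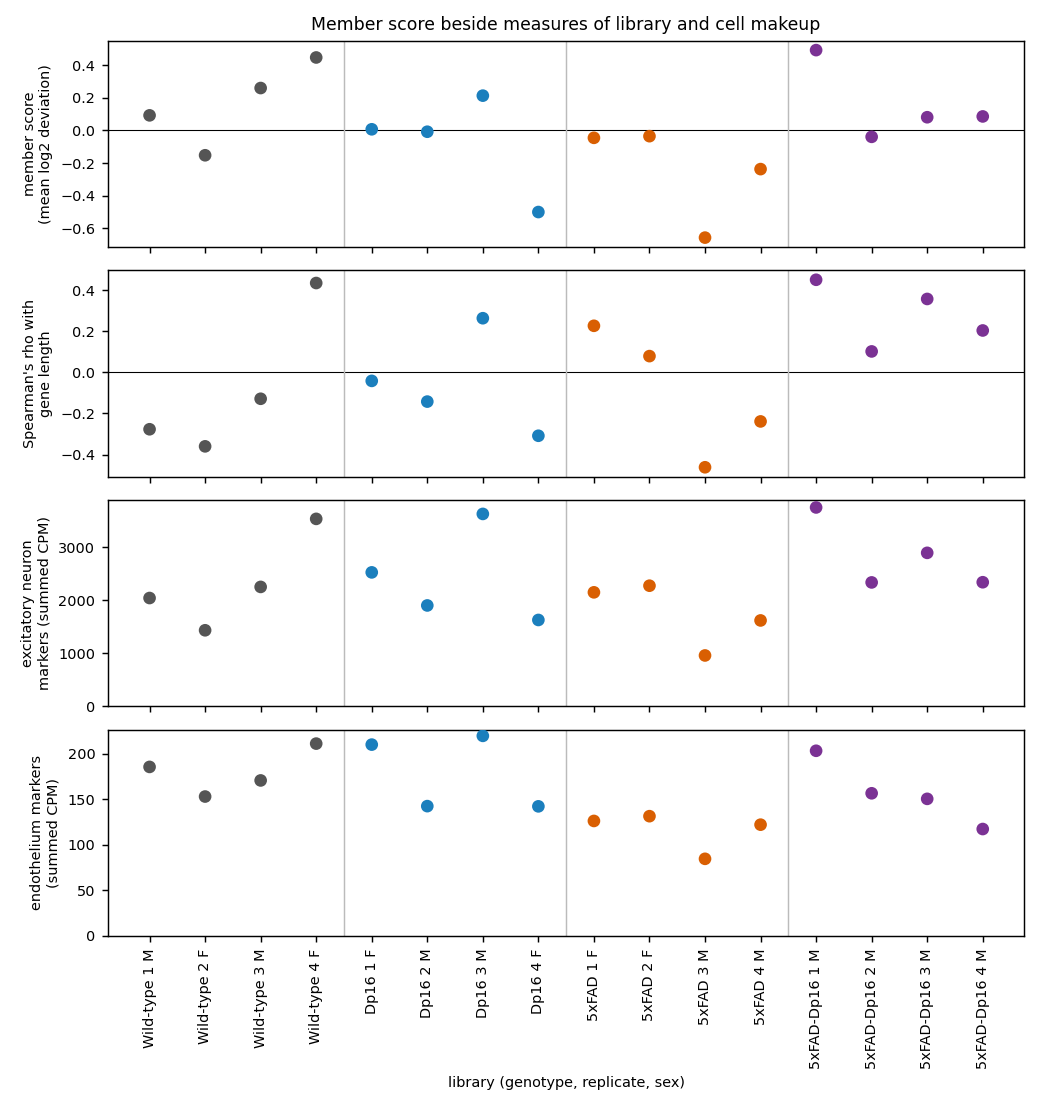
For each of the 16 libraries (horizontal axis): the member score (mean log2 deviation of the 38 genes), Spearman's rho across genes with gene length, and the summed CPM of excitatory neuron and endothelium markers (bottom panels start at 0). 5xFAD replicate 3 is lowest in all 4 panels, at -0.66, -0.46, 960 and 84.6, and 5xFAD-Dp16 replicate 1 is highest in the first 3.

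Between the sexes, 1 of 38 members passed an unadjusted p of 0.05, against 4.03% of all genes, and 0 passed after adjustment, where 0.0353% of genes were called. It was Ptgs2, higher in males at 0.65 (SE 0.18, adjusted p = 0.889). The next were Dusp6 at 0.18 (SE 0.09, adjusted p = 0.889), Btg2 at 0.43 (SE 0.22, adjusted p = 0.889) and Junb at 0.27 (SE 0.16, adjusted p = 0.889), and DESeq2 passed 0. The median over the 38 was 0.00, with 19 positive and 19 negative. Of 7 striatum markers 7 were lower in males, with a median of -0.42. At an unadjusted p under 0.05, 4 of them were lower, against 2.56% of all genes.

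Genes around these members were taken as 5 lists, of which no gene passed after adjustment in the comparisons described. The lists overlap: Sgk1, Cdkn1a, Per1 and Errfi1 are in both the further activity-induced and the glucocorticoid-responsive list, and Per1 is also in the clock list. Of 32 further activity-induced genes 31 were tested, and their medians were -0.10 in Dp16 and -0.13 in 5xFAD relative to Wild-type, and -0.03 for the interaction, where the members stood at -0.25, -0.48 and 0.68. In 5xFAD-Dp16 relative to 5xFAD their median was -0.14, with 19 of 31 negative, where that of the members was 0.49. At an unadjusted p under 0.05, 5 were lower, against 12% of all genes, and 3 were higher, against 11.8%. Both counts are near the share over all genes. In 5xFAD the list's smallest p-values belonged to Spry2, an inhibitor of growth factor signalling, at -0.41 (SE 0.12, adjusted p = 0.23), Mcl1, an anti-apoptotic protein, at 0.31 (SE 0.09, adjusted p = 0.261), the orphan receptor Gpr3 at -0.92 (SE 0.31, adjusted p = 0.298) and Ccn2 at -0.40 (SE 0.17, adjusted p = 0.407). For the interaction they were Rasl11a at -1.24 (SE 0.33, adjusted p = 0.522), Mcl1 at -0.49 (SE 0.14, adjusted p = 0.522), Spry2 at 0.58 (SE 0.17, adjusted p = 0.522) and Ccn1 at 1.27 (SE 0.47, adjusted p = 0.522).

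Upstream of the members, 34 receptors, channels, kinases and factors had a median of 0.04 in Dp16 and -0.12 in 5xFAD relative to Wild-type, and 0.38 in 5xFAD-Dp16 relative to 5xFAD, where 29 of 34 were positive and 9 were higher at an unadjusted p under 0.05, a share to set beside 11.8% of all genes. In that last comparison Prkaca, the catalytic subunit of protein kinase A, was at 0.54 (SE 0.14, adjusted p = 0.155), Cacna1c, the L-type calcium channel, at 1.22 (SE 0.41, adjusted p = 0.155), Grin1, the obligatory NMDA receptor subunit, at 0.82 (SE 0.30, adjusted p = 0.157) and Mef2d at 1.15 (SE 0.42, adjusted p = 0.157). The upstream genes summed to 4682 CPM in 5xFAD replicate 3, against 5982 to 6362 in the other 5xFAD libraries. Their values without that library were not computed. Lists tied to handling, time of day and heat were set beside the members: in Dp16 relative to Wild-type the median was 0.39 for 10 glucocorticoid-responsive genes with 9 positive, 0.09 for 16 tested clock genes and -0.03 for 11 heat shock genes. Among these, Fkbp5, which responds to glucocorticoids, was at 0.58 (SE 0.32, adjusted p = 1), the clock gene Per2 at 0.60 (SE 0.34, adjusted p = 1) and the chaperone Hspa1b at -0.71 (SE 0.33, adjusted p = 1). In 5xFAD the medians were -0.26, -0.19 and -0.07, and for the interaction -0.17, 0.27 and -0.12. In 5xFAD-Dp16 relative to Dp16 the glucocorticoid list had a median of -0.39, and sums of 285 to 340.3 against 433 to 618 CPM, without overlap. At an unadjusted p under 0.05, 4 of 10 were lower, against 2.63% of all genes, among them the shared genes Sgk1 and Cdkn1a. Tsc22d3, a glucocorticoid-induced leucine zipper protein, was at -0.97 (SE 0.20, adjusted p = 0.38), where the member median was 0.27.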

How the data were processed

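Brain cortex of 16 mice, 4 per genotype, had been sequenced as strand-specific polyadenylated RNA libraries. The authors deposited whole-number read counts per gene and, beside them, RPKM values. Reads were processed with bcl2fastq, FastQC 0.11.5, HISAT2 2.1.0, SAMtools 1.5 and HTSeq 0.6.1 on GRCm38, per the submitters' processing notes; the strand setting of the counting is not given in the sources used here. RPKM values that the authors deposited served only to compare levels between genes. Counts were fitted over all 16 libraries with genotype and sex by edgeR 4.0.16 (quasi-likelihood, robust, TMM scaling, default low-count filter) with Benjamini-Hochberg adjustment over 17019 genes at 0.05, in R 4.3.3; DESeq2 1.42.0 was an alternative. Log2 CPM used a prior count of 2. Members with full values were the 4 with the smallest p in each comparison plus the activity reporters Fos, Junb, Npas4, Nr4a1, Egr1, Arc, Dusp1 and Bdnf. The members and lists were chosen with earlier results of these data known. Alternatives left out each library, used males only or only the genotypes compared, removed a gene length trend, dropped the filter or the sex term, or added a replicate block. Promoter sequences and starts were RefSeq's (GRCm38.p6); gene coordinates were Gencode's.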

Additional observations from a re-analysis of the deposited data

Results flagged for a closer look

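Each member's 4 libraries of a genotype were searched by Dixon's test at its 95% critical value for a value far from the other 3. Chance flags about 1 in 20 such groups, and 13 of 152 were found.

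5xFAD replicate 3, which stood apart over all genes, held 4 of them: Btg2 at 22.1 CPM (others 10.4 to 11.4), Dusp1 at 49.9 (41.2 to 42.5) and Ier2 at 11.7 (8.06 to 8.66) were high, and Nr4a3 at 8.84 (15.3 to 16.1) was low. In Wild-type, replicate 1 was high for Btg2 at 23.9 (11.99 to 13.05) and for Gadd45b at 33.6 (22.9 to 24.5). Wild-type replicate 4 was high for Klf2 at 17.3 (11.51 to 12.2) and for Maff at 3.05 (1.70 to 1.90). 5xFAD replicate 4 was low for Gadd45b at 16.5 (18.8 to 19.2). Dp16 replicate 4 was low for Junb at 43.7 (67.8 to 70.8). In 5xFAD-Dp16, replicate 2 was high for Gadd45g at 31.5 (17.7 to 19.6) and low for Inhba at 6.81 (8.13 to 8.36), and replicate 4 was high for Klf10 at 54.0 (43.4 to 44.7).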

How the results depend on the processing

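Over 58 results for single members and 1537 alternative values, 1455 kept direction and side of the threshold, 56 passed the threshold only under the alternative and 26 reversed, all of Arc or Bdnf. Arc in 5xFAD-Dp16 minus Dp16 was -0.027 with only the genotypes compared, -0.026 in males only, -0.018 in males only with the length trend removed and -0.024 in males only without 5xFAD replicate 3; these last 2 alternatives were chosen after seeing the data. Bdnf, whose changes were smaller than their standard errors, reversed under those 4 in the same comparison, at -0.033, -0.033, -0.135 and -0.032, and at -0.0053 with the replicate block and -0.183 with the length trend removed. In Dp16 minus Wild-type Bdnf was 0.054 in males only and 0.065 in males only without 5xFAD replicate 3, which gave 0.036 in 5xFAD minus Wild-type, -0.0030 in 5xFAD-Dp16 minus 5xFAD and -0.068 for the interaction. With the length trend removed the last 2 Bdnf values were -0.184 and -0.123, and in males only -0.252 and -0.165, with 0.030 in 5xFAD minus Wild-type. Leaving out each library gave Bdnf values from -0.135 to 0.051 in Dp16 minus Wild-type and from -0.042 to 0.168 in 5xFAD-Dp16 minus Dp16. The causes were not tested.

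Counts of genes called, in the order Dp16 minus Wild-type, 5xFAD minus Wild-type, then 5xFAD-Dp16 minus 5xFAD, minus Dp16 and minus Wild-type, were 3, 30, 0, 3 and 8, with 0 for the interaction and 6 for sex. DESeq2 called 35, 234, 781, 25, 106 and, for the interaction, 21. Without the filter they were 43, 235, 2215, 45 and 292, with 346 for the interaction and 37 for sex. Only the genotypes compared gave 0, 7, 5020, 5 and 0. Males only gave 0, 5 and 3956, and 2 against Wild-type. No sex term gave 16 against 5xFAD and 14 against Wild-type. Removing the length trend gave 16 in Dp16 and 4 against 5xFAD, and in males only 0, 14 and 3136. Without both libraries that stand apart they were 1, 18 and, against Dp16, 5. Males only without 5xFAD replicate 3 left replicate 4 as the only 5xFAD mouse, so its counts are not set beside these. Leaving out each library gave 0 to 3, 16 to 32, 0 to 42, 2 to 5, 3 to 21 and, for the interaction, 0 to 1. Members called were 0 in the main fits, 3, 2, 2 and, for the interaction, 4 by DESeq2, 5, 7, 9, 3 and, for the interaction, 13 without the filter, and, against 5xFAD, 15 with only the genotypes compared and 13 in males only, with or without the length trend. Leaving out each library gave 0 throughout.

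The median member change over the left-out libraries ran from -0.32 to -0.17, -0.61 to -0.31, 0.24 to 0.63, 0.06 to 0.50 and -0.17 to 0.05, with 0.46 to 0.93 for the interaction and -0.11 to 0.11 for sex. Replicate numbers did not pair the libraries: 24 same-numbered pairs correlated at a median of -0.016, 5 of them over 0.1, and 1 of 16 libraries correlated best with its own number. With the replicate block 0, 20, 0, 2 and 3 genes were called, 0 for the interaction, 5 for sex and 0 members. Depth limits the scarce members most, such as Maff.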
